A study of Bos taurus with 24 samples.

Results

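Splicing removes the introns of a primary transcript, and it is carried out by the spliceosome, a complex that is assembled anew on each intron. Its core is made of small nuclear ribonucleoproteins, in which a ring of Sm proteins (or, on U6 RNA, of LSM proteins) surrounds a small nuclear RNA. The U2AF and SF3 proteins recognise the 3′ end of the intron, the PRPF proteins build and rearrange the catalytic complex, and the SR and hnRNP proteins bind the transcript and promote or repress the use of splice sites. The bovine embryo relies on stored oocyte RNA until it starts its own transcription, so that at the blastocyst stage it makes and splices its own transcripts.

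The genes described here are the rows of the count table whose symbol begins with SRSF, HNRNP, HNRP, SF3A, SF3B, PRPF, LSM or U2AF, or with SNRP followed by a letter from A to G. They were 75 of 24621 rows: 19 hnRNP, 13 LSM, 13 PRPF, 12 SNRP, 9 SF3A or SF3B, 6 SRSF and 3 U2AF genes. The symbols of 69 rows matched a current RefSeq symbol, 5 matched an older one (HNRPC, HNRPD, HNRPDL, HNRPH2 and SF3B14, now HNRNPC, HNRNPD, HNRNPDL, HNRNPH2 and SF3B6), and HNRPA0 was unmatched. LSMEM1 and LSMEM2 fit the naming rule but encode membrane proteins rather than splicing factors, and both were untested for low counts. SNRNP70, a protein of the U1 particle, falls outside the naming rule and was counted among the other spliceosome proteins.

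Single early blastocysts of quality 1 from Holstein cattle were sequenced, each embryo being one replicate. The 8 in vivo derived embryos (5 male, 3 female) were flushed from 3 superovulated cows on the seventh day after insemination. The 8 embryos produced in serum-containing medium (3 male, 5 female) came from oocytes matured with fetal bovine serum, and were then cultured in synthetic oviduct fluid with fetal bovine serum. The 8 embryos produced in serum-free medium (5 male, 3 female) came from oocytes matured with epidermal growth factor, and were then cultured in the same fluid with bovine serum albumin, insulin, transferrin and selenium. Embryos produced in vitro were collected between the sixth and the seventh day from 3 experiments with oocytes of slaughterhouse ovaries, and the semen of one bull was used for all 3 groups. The labels do not tie embryos to a cow, an experiment or a sequencing lane, and no values were therefore computed within these. The p-values treat embryos as independent and weigh group differences against the spread between the embryos sequenced. Likeness among embryos of one cow or experiment could not be allowed for, and could make these p-values too small.

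The embryos had between 3253051 and 9000447 exon counts, with a median of 4454031. Levels are given as CPM, counts scaled to the TMM-normalized library size, and testing required at least 15 counts in each embryo of 1 or more of the compared groups. A gene was called changed with an adjusted p under 0.05 in edgeR's quasi-likelihood test, whatever its fold change. Log2 fold changes are serum-containing or serum-free medium over in vivo, positive values being higher in culture. CPM values do not allow for gene length, and levels are therefore compared between embryos and not between genes. Reads of genes with near-identical copies elsewhere in the genome, as hnRNP and Sm genes often have, were counted only where they mapped uniquely, which makes the levels of such genes uncertain.

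Among the splicing factors, 67 were tested between embryos produced in serum-containing medium and in vivo derived embryos. Of these, 32 were higher in serum-containing medium and 1, SRSF6, was lower, whereas 28.5% of all 7339 genes tested were changed, 16.3% being higher and 12.2% lower. The median log2 fold change of the splicing factors was 0.38, against 0.05 over all genes tested, and 55 of the 67 had a positive value. The changes were mostly small: 4 splicing factors, SNRPG, LSM1 and SNRPF among them, were at least 2-fold higher and none was at least 2-fold lower, against 13.7% of all genes tested in either direction, 6.92% higher and 6.81% lower. Without serum embryo 2, 2 remained at least 2-fold higher, SNRPG and LSM1. The 75 rows together made up 19744 ± 1227 CPM in vivo (SD, n = 8, from 18540 to 21974) and 24665 ± 2195 CPM in serum-containing medium (SD, n = 8, from 21795 to 27986). Serum embryo 8 alone lay within the in vivo range. Without a filter on low counts, 21 splicing factors were called in place of 33.

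**Figure D1:**
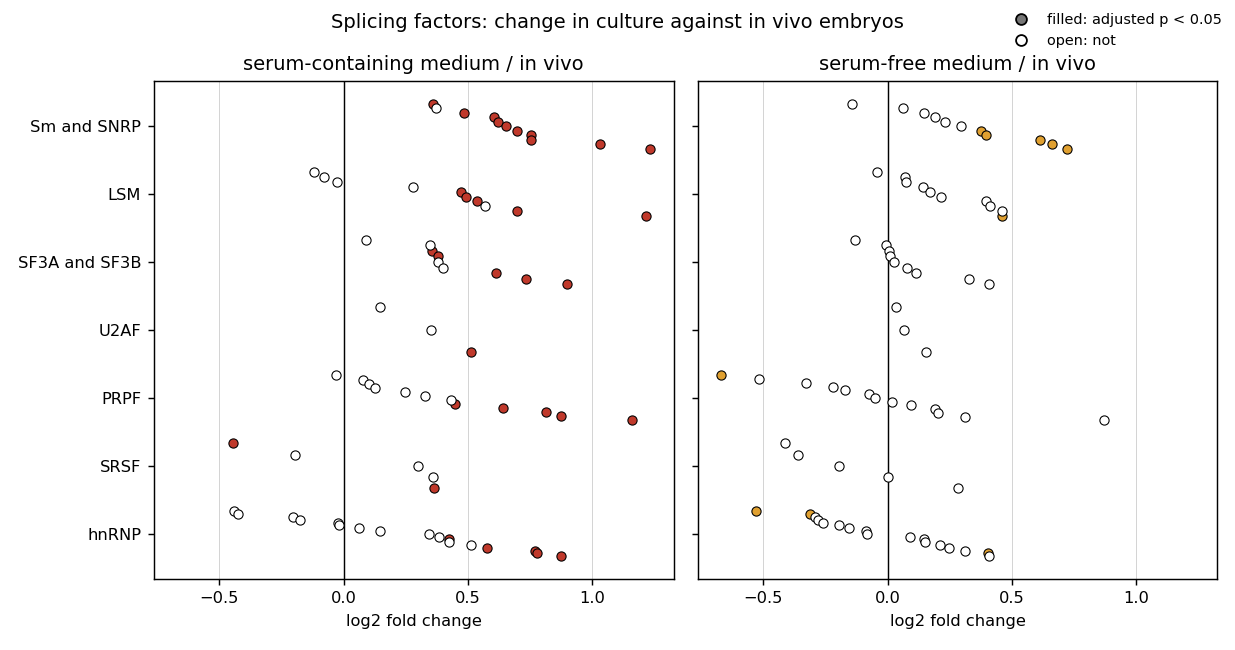
Log2 fold change of each splicing factor tested (x axis) by class (y axis), for serum-containing medium over in vivo (left) and serum-free medium over in vivo (right). Filled points had an adjusted p under 0.05; on the left, 32 filled points lie to the right of 0 and 1, SRSF6, to the left, and on the right 7 lie to the right and 3 to the left.

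The proteins of the Sm ring and the other SNRP proteins were the class with the largest share of members changed. Of 11 tested, 10 were higher in serum-containing medium, against 16.3% of all genes tested. The median log2 fold change of the 11 was 0.65. Added up, the class had 2185 ± 135 CPM in vivo and 3400 ± 602 CPM in serum-containing medium (SD, n = 8 each), and all 8 serum embryos were above the highest in vivo embryo.

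SNRPG, a subunit of the Sm ring, ran from 99.0 to 165 CPM in vivo with a median of 122, and from 194 to 391 CPM in serum-containing medium with a median of 271. No serum embryo overlapped with the in vivo embryos. The log2 fold change of SNRPG was 1.23 (SE 0.18, adjusted p = 0.00015). SNRPF, another subunit of the ring, had 50.4 to 108 CPM in vivo (median 94.3) and 94.1 to 276 CPM in serum-containing medium (median 160). Of the serum embryos, 7 were above every in vivo embryo for SNRPF, and serum embryo 8 was not. The log2 fold change of SNRPF was 1.03 (SE 0.21, adjusted p = 0.0018). SNRPE, which forms a subcomplex with both, is listed on 2 rows, of which the first carries the counts and the second had at most 2 counts in any embryo. It had 113 ± 14.7 CPM in vivo and 186 ± 46.9 CPM in serum-containing medium (SD, n = 8 each), with a log2 fold change of 0.76 (SE 0.16, adjusted p = 0.00213).

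The remaining Sm proteins had smaller log2 fold changes, although a difference from SNRPE, SNRPF and SNRPG was not tested. SNRPB had a median of 288 CPM in vivo and 405 CPM in serum-containing medium, with 7 of 8 serum embryos above the in vivo range (log2 fold change 0.70, SE 0.16, adjusted p = 0.0037). SNRPD1 had 168 to 206 CPM in vivo and 210 to 369 CPM in serum-containing medium, without overlap (0.62, SE 0.15, adjusted p = 0.00608). SNRPD2 had 154 to 195 CPM in vivo and 200 to 380 CPM in serum-containing medium, again without overlap (0.65, SE 0.14, adjusted p = 0.003). SNRPD3 completed the ring with a log2 fold change of 0.61 (SE 0.15, adjusted p = 0.00632), so that all 7 Sm ring genes were higher in serum-containing medium.

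Proteins specific to one particle showed the same direction. SNRPC, which belongs to the U1 particle that recognises the 5′ splice site, had 257 to 314 CPM in vivo (median 279) and 358 to 560 CPM in serum-containing medium (median 489). Every serum embryo was above every in vivo embryo, and the log2 fold change was 0.75 (SE 0.13, adjusted p = 0.000549). SNRPA1 and SNRPB2, both of the U2 particle, were higher with log2 fold changes of 0.36 (SE 0.13) and 0.49 (SE 0.14). SNRPA, of the U1 particle, had a log2 fold change of 0.37 (SE 0.17) that did not pass the test (adjusted p = 0.0959).

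**Figure D2:**
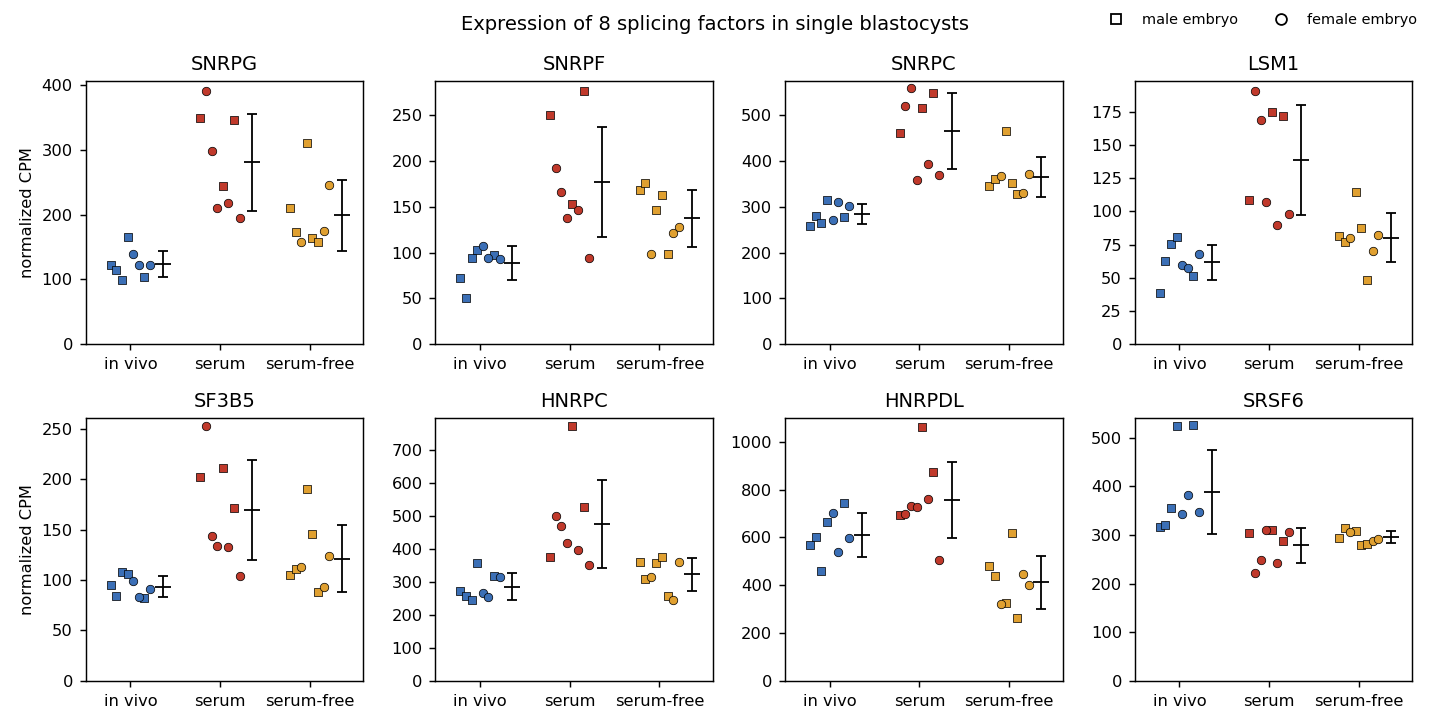
Normalized CPM (y axis, from 0) of 8 splicing factors in each embryo, by culture; squares are male and circles female embryos, and bars give the mean ± SD of 8 embryos. For SNRPG, SNRPC and LSM1 no embryo of serum-containing medium falls within the in vivo range, and for SRSF6 all embryos of both media lie below it.

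The LSM proteins resemble the Sm proteins, and different rings of them act in different places. LSM2 to LSM8 surround U6 RNA in the nucleus, whereas LSM1 replaces LSM8 in the cytoplasmic ring that promotes removal of the cap from messenger RNA. Of 10 LSM genes tested, 5 were higher in serum-containing medium and none was lower, against 16.3% and 12.2% of all genes tested. The class sum was 1135 ± 71.6 CPM in vivo and 1456 ± 156 CPM in serum-containing medium (SD, n = 8 each).

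LSM1 had the largest change of the class. Its level ran from 38.9 to 80.6 CPM in vivo (median 61.0) and from 89.5 to 191 CPM in serum-containing medium (median 139). All 8 serum embryos exceeded the in vivo range, with a log2 fold change of 1.22 (SE 0.20, adjusted p = 0.000443). LSM12, an LSM-domain protein that belongs to neither ring, had 134 to 183 CPM in vivo and 167 to 242 CPM in serum-containing medium, 7 serum embryos being above the in vivo range (0.54, SE 0.12, adjusted p = 0.00254). The other 3 that were higher, LSM7 (0.70, SE 0.18), LSM3 (0.49, SE 0.15) and LSM6 (0.47, SE 0.16), are shared by the nuclear and cytoplasmic rings. Other subunits of the rings did not pass the test: LSM2 had 42.5 ± 8.19 CPM in vivo and 39.4 ± 10.9 CPM in serum-containing medium (SD, n = 8 each; log2 fold change -0.08, 95% interval -0.49 to 0.34), and LSM4 had a log2 fold change of -0.03 (95% interval -0.28 to 0.23). LSM5 had a log2 fold change of 0.28 (SE 0.17, adjusted p = 0.213). LSM14A, a protein of cytoplasmic RNA granules, had one of -0.12 (SE 0.15), and LSM10, of the U7 particle that processes histone transcripts, one of 0.57 (SE 0.31, adjusted p = 0.173).

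The SF3A and SF3B proteins hold the U2 particle on the branch point. All 9 had a positive log2 fold change, and 5 were higher in serum-containing medium, against 16.3% of all genes tested. SF3B5 and SF3B14, small proteins of the SF3B complex, led the class. SF3B5 had 81.9 to 108 CPM in vivo (median 92.8) and 104 to 252 CPM in serum-containing medium (median 158), with 7 serum embryos above the in vivo range (log2 fold change 0.90, SE 0.17, adjusted p = 0.00134). SF3B14, which contacts the branch point adenosine, had 195 to 280 CPM in vivo (median 233) and 260 to 542 CPM in serum-containing medium (median 405), also with 7 embryos above the range (0.73, SE 0.16, adjusted p = 0.00295). SF3A3 (0.61, SE 0.16), SF3B4 (0.38, SE 0.13) and SF3B2 (0.36, SE 0.13) were higher as well, the last with an adjusted p of 0.0494. SF3B1, the large scaffold of the complex, had 319 to 453 CPM in vivo (median 384) and 339 to 924 CPM in serum-containing medium (median 390). The medians were close and the groups overlapped, 2 serum embryos being above the in vivo range, and the log2 fold change of 0.35 (SE 0.19) did not pass the test (adjusted p = 0.168). SF3B3 had a log2 fold change of 0.09 (SE 0.20).

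U2AF recognises the polypyrimidine tract and the 3′ splice site through a large and a small subunit. The small subunit, U2AF1, had 141 to 202 CPM in vivo (median 160) and 148 to 325 CPM in serum-containing medium (median 206), 5 serum embryos being above the in vivo range, and it was higher (log2 fold change 0.51, SE 0.16, adjusted p = 0.0217). The row of the large subunit, U2AF2, held few counts, with 9.02 ± 2.79 CPM in vivo and 11.2 ± 3.95 CPM in serum-containing medium (SD, n = 8 each). No difference in U2AF2 was detectable at this depth (log2 fold change 0.35, 95% interval -0.22 to 0.92).

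**Figure D3:**
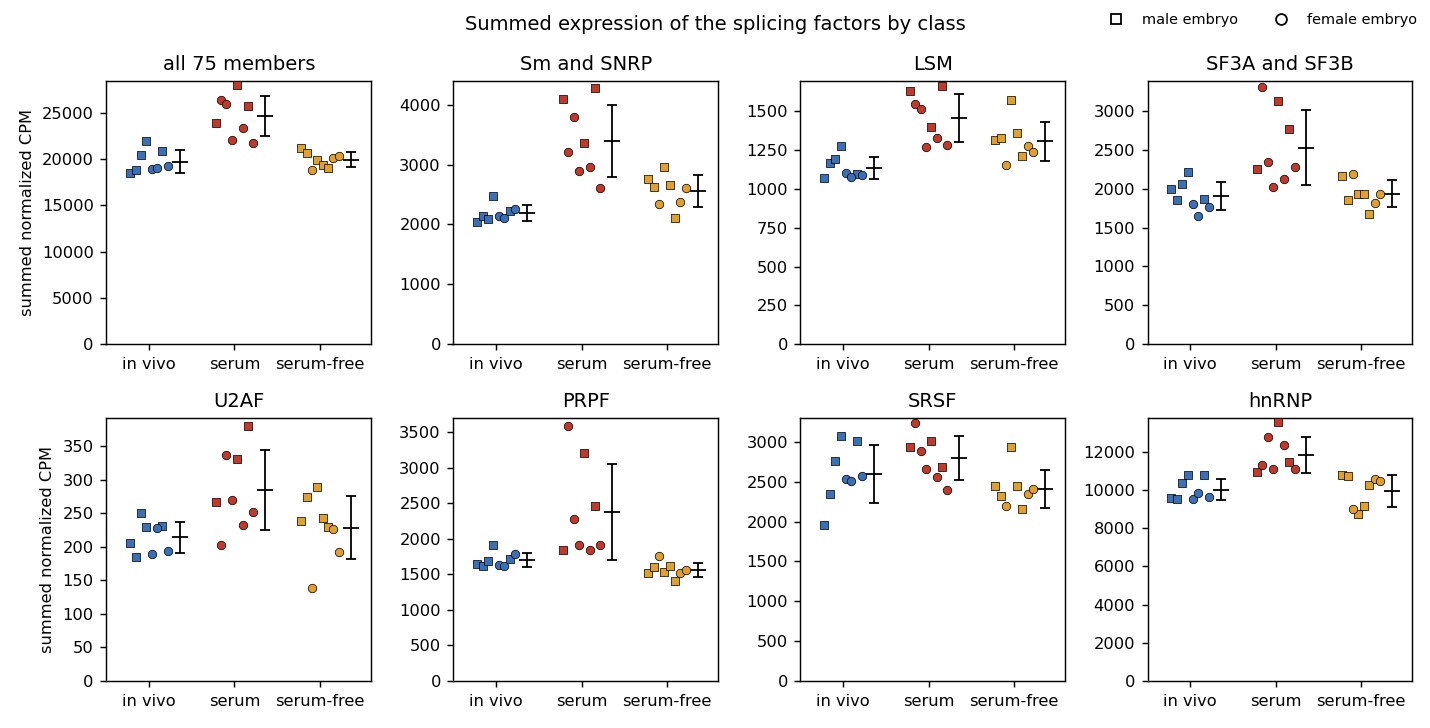
Summed normalized CPM (y axis, from 0) of all 75 splicing factors and of each class in every embryo, by culture; squares are male and circles female embryos, and bars give the mean ± SD of 8 embryos. The Sm and SNRP sum is above the in vivo range in all 8 embryos of serum-containing medium, and the sum of all 75 in 7 of 8.

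The PRPF proteins include the scaffolds and helicase cofactors of the U4/U6.U5 particle and the catalytic core. Of 12 tested, 5 were higher in serum-containing medium, against 16.3% of all genes tested. PRPF19 (0.87, SE 0.30), PRPF31 (0.81, SE 0.26), PRPF4 (0.64, SE 0.18) and PRPF38A (0.45, SE 0.15) were among them. PRPF8, the scaffold of the catalytic centre, had 358 ± 57.7 CPM in vivo and 367 ± 58.9 CPM in serum-containing medium (SD, n = 8 each). Its difference did not pass the test (log2 fold change 0.08, 95% interval -0.20 to 0.36), and neither did those of PRPF6 (-0.03, SE 0.26) and PRPF3 (0.33, SE 0.21).

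SR proteins bind exonic enhancers and recruit U1 and U2AF. The class did not move in one direction. SRSF3 was higher in serum-containing medium, at 747 to 1047 CPM (median 803) against 475 to 873 CPM in vivo (median 641), although 1 serum embryo alone was above the in vivo range (log2 fold change 0.36, SE 0.13, adjusted p = 0.0409). SRSF1, the founding member of the family, had 567 ± 110 CPM in vivo and 705 ± 122 CPM in serum-containing medium (SD, n = 8 each) and did not pass the test (0.36, SE 0.14, adjusted p = 0.0666). SRSF6 was singled out after its values were seen, as the splicing factor that was lower. It had 315 to 526 CPM in vivo (median 351) and 222 to 311 CPM in serum-containing medium (median 295). All 8 serum embryos were below the lowest in vivo embryo, by a small margin for the highest of them, and in vivo embryos 4 and 8 stood above the other in vivo embryos at 524 and 526 CPM. The log2 fold change of SRSF6 was -0.45 (SE 0.13, adjusted p = 0.0176). SRSF2 had a log2 fold change of -0.20 (SE 0.17, adjusted p = 0.391), and SRSF12 was untested, with at most 40 counts.

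The hnRNP proteins coat nascent transcripts and often repress splice sites. Of 17 tested, 5 (29.4%) were higher in serum-containing medium and none was lower, against 16.3% higher and 12.2% lower among all genes tested. With both directions counted, the 29.4% changed was close to the 28.5% of all genes tested. It was the smallest share changed among the classes of more than 5 tested. HNRPC, which binds uridine tracts, had 246 to 358 CPM in vivo (median 270) and 351 to 770 CPM in serum-containing medium (median 443), 7 serum embryos being above the in vivo range (log2 fold change 0.77, SE 0.15, adjusted p = 0.00144). HNRNPA1, an antagonist of SR proteins at many exons, had 2240 to 3264 CPM in vivo (median 2470) and 3095 to 5033 CPM in serum-containing medium (median 3763), with 6 embryos above the range (0.57, SE 0.12, adjusted p = 0.00266). HNRNPAB (0.87, SE 0.28), HNRNPH1 (0.78, SE 0.18) and HNRNPA3 (0.42, SE 0.11) were the other 3 that were higher. HNRNPA2B1, a close relative of HNRNPA1, had 1083 to 1248 CPM in vivo and 812 to 1673 CPM in serum-containing medium. Its serum embryos lay on both sides of the in vivo range, 5 above and 2 below, and the log2 fold change was 0.15 (95% interval -0.10 to 0.40). HNRNPK (0.06, SE 0.14), HNRNPR (-0.02, SE 0.13) and HNRNPUL1 (-0.20, SE 0.15) did not pass the test either.

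Of the 67 splicing factors tested, 7 had all serum embryos above all in vivo embryos (HNRNPA3, LSM1, SNRPC, SNRPD1, SNRPD2 and SNRPG among them) and 1 had them all below (SRSF6). Over all genes tested, 3.16% were without overlap in the higher direction and 3.84% in the lower.

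The embryos of serum-containing medium also differed from in vivo embryos in markers of cell type. The 6 trophectoderm genes summed to between 7585 and 14806 CPM in vivo, between 287 and 5171 CPM in serum-containing medium and between 4957 and 27414 CPM in serum-free medium. KRT8 made up most of this sum, at 6002 to 11745 CPM in vivo and 35.9 to 4082 CPM in serum-containing medium. GATA3, KRT8 and KRT18 were lower in serum-containing medium, while TFAP2C, the fourth trophectoderm gene tested, had a log2 fold change of 0.35 (SE 0.22, adjusted p = 0.238). The defining factor CDX2 was at or near 0 in all 3 groups, at no more than 2.48 CPM. The 6 inner cell mass genes summed to 346 to 478 CPM in vivo, 343 to 679 CPM in serum-containing medium and 251 to 475 CPM in serum-free medium. Of 4 tested, 1 was higher in serum-containing medium than in vivo, with 16.3% of all genes tested being higher. Their means went both ways, SOX2 from 8.39 in vivo to 19.9 CPM in serum-containing medium and POU5F1 from 216 to 149 CPM. The 6 hypoblast genes summed to 344 to 600, 25.4 to 236 and 127 to 398 CPM in the 3 groups. PDGFRA made up most of the hypoblast sum and was lower in serum-containing medium, whereas GATA6, of the same list, had a log2 fold change of 0.20 (SE 0.30, adjusted p = 0.645). SOX17, a defining hypoblast gene, was at 0 in every in vivo and serum embryo. The 5 cumulus cell genes summed to at most 48.8 CPM, with PTX3 at 0 in every embryo, and the 6 oocyte genes to at most 14.3 CPM in vivo, 108 CPM in serum-containing medium and 102 CPM in serum-free medium. Both of the latter were single embryos, serum embryo 2 and serum-free embryo 1, and without them the highest oocyte sums were 22.3 and 40.0 CPM. Serum embryo 8 had the highest trophectoderm sum of its group and the lowest splicing factor sum, and serum embryo 2 the lowest trophectoderm sum. The highest splicing factor sum was that of serum embryo 5, at 27986 CPM. Serum embryo 4 had 22136 CPM of splicing factors with 1164 CPM of trophectoderm genes. The part of cell type composition in the levels of the splicing factors was not tested, and in whole embryos fewer cells of a type and less RNA per cell cannot be told apart.

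Between embryos produced in serum-free medium and in vivo derived embryos, 68 splicing factors were tested, of which 7 were higher and 3 were lower. Over all 7314 genes tested, 5.8% were changed, 3.49% being higher and 2.31% lower. No splicing factor was at least 2-fold changed, against 2.24% of all genes tested. The median log2 fold change of the splicing factors was 0.08, against 0.01 over all genes tested, and the 75 rows summed to 19959 ± 836 CPM (SD, n = 8), against the 19744 CPM found in vivo. Of the 10 changed genes, 5 were SNRP genes, out of 11 SNRP genes tested. One fit over all 24 embryos called 3 of the 10.

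SNRPE had 141 to 191 CPM in serum-free medium (median 171), above the 94.7 to 135 CPM of every in vivo embryo (log2 fold change 0.62, SE 0.11, adjusted p = 0.00298). SNRPG had 157 to 311 CPM (median 173), and 5 embryos of serum-free medium were above the in vivo range (0.72, SE 0.15, adjusted p = 0.0083). SNRPC had 328 to 465 CPM (median 356), and all 8 embryos were above the in vivo range (0.39, SE 0.10, adjusted p = 0.0209). These levels lay between those of the in vivo and the serum embryos for SNRPG and SNRPC, while the median of SNRPE was 171 CPM in both media. SNRPF had a median of 137 CPM, with 6 embryos above the in vivo range (0.66, SE 0.16, adjusted p = 0.0225), and SNRPA1 a log2 fold change of 0.38 (SE 0.10, adjusted p = 0.0337). The Sm proteins SNRPB (-0.14, 95% interval -0.34 to 0.05) and SNRPD3 (0.06, 95% interval -0.15 to 0.28) did not pass the test.

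Outside the SNRP genes, LSM12 was higher, at 160 to 270 CPM (median 202; log2 fold change 0.46, SE 0.11, adjusted p = 0.0231), and HNRNPA1 was higher, at 2794 to 4231 CPM (median 3408; 0.40, SE 0.11, adjusted p = 0.0343). The other LSM genes were not called, LSM1 with 48.4 to 115 CPM having a log2 fold change of 0.41 (SE 0.17, adjusted p = 0.15). None of the 9 SF3A and SF3B genes, the 3 U2AF genes or the 5 SRSF genes tested was called. SF3B5 had a log2 fold change of 0.41 (SE 0.15, adjusted p = 0.102), U2AF1 one of 0.15 (SE 0.16) and SRSF1 one of 0.00 (95% interval -0.25 to 0.26).

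The genes that were lower belonged to 2 classes. HNRNPF, which binds runs of guanine, is listed on 2 rows, of which the second had no counts. Its first row had 1867 to 2023 CPM in vivo (median 1936) and 1419 to 1861 CPM in serum-free medium (median 1470). The groups did not overlap, and the change was small, with a log2 fold change of -0.31 (SE 0.08, adjusted p = 0.0259). HNRPDL, a relative of HNRPD, had 459 to 744 CPM in vivo (median 599) and 263 to 620 CPM in serum-free medium (median 420), 6 embryos being below the in vivo range (-0.53, SE 0.15, adjusted p = 0.0381). PRPF39, a protein associated with the U1 particle and singled out after its values were seen, had 103 to 192 CPM in vivo (median 162) and 57.8 to 149 CPM in serum-free medium (median 88.9), 5 embryos being below the range (-0.67, SE 0.18, adjusted p = 0.0337). The calls of HNRPDL and PRPF39 were lost in 13 and 12 of 25 alternative settings. SRSF6 did not pass the test in serum-free medium (-0.36, SE 0.12, adjusted p = 0.0706), although its 8 embryos were all below the in vivo range, the highest at 315.2 CPM against 315.4 CPM for the lowest in vivo embryo. Over the splicing factors, 2 were without overlap in the higher direction (SNRPC and SNRPE) and 2 in the lower (HNRNPF and SRSF6), against 0.52% and 0.451% of all genes tested.

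The direct comparison of the media, given as serum-containing over serum-free, tests where the 2 cultures differed. Of 68 splicing factors tested, 10 were higher in serum-containing medium and none was lower, against 9.27% higher and 7.62% lower (16.9% in all) over the 7181 genes tested. Their median log2 difference was 0.35, against 0.04 over all genes tested, and 60 of 68 had a positive value.

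SNRPB had the clearest difference. It ran from 216 to 302 CPM in serum-free medium (median 246) and from 326 to 634 CPM in serum-containing medium, and it was the one splicing factor whose media did not overlap, against 0.863% of all genes in this direction (log2 difference 0.84, SE 0.16, adjusted p = 0.00509). HNRPDL had 263 to 620 CPM in serum-free and 506 to 1060 CPM in serum-containing medium (0.87, SE 0.17, adjusted p = 0.00525). LSM1 differed as well, with a log2 difference of 0.80 (SE 0.21, adjusted p = 0.0166). Others were SRSF7 (0.49, SE 0.13), HNRPC (0.56, SE 0.16) and SNRPD3 (0.54, SE 0.16). Closer to the threshold were SNRPD2 (0.50, SE 0.17, adjusted p = 0.0449), PRPF39 (0.77, SE 0.25, adjusted p = 0.0416) and PRPF38A (0.42, SE 0.14, adjusted p = 0.0478). The call of SNRPD2 was lost in 18 of 26 alternative settings. Of the 10, 1 was at least 2-fold higher, as were 3.9% of all genes tested.

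SNRPE and SNRPA1, called higher in each medium against in vivo, had log2 differences between the media of 0.13 (95% interval -0.18 to 0.45) and -0.02 (95% interval -0.29 to 0.25). For SNRPG the difference was 0.50 (SE 0.20, adjusted p = 0.0842) and for SNRPC 0.35 (SE 0.14, adjusted p = 0.0868), and neither passed the test. The SF3A and SF3B genes all had positive differences, from 0.06 to 0.53, none of which passed the test. Serum embryos 2 and 5 stood apart in several of these genes, and without both of them 4 of the 10 splicing factors were called between the media, while 30 were called between serum-containing medium and in vivo. Without serum-free embryo 7 alone, 5 were called between the media.

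The sex of the embryos differed between the groups in number, and the comparison with in vivo was also made within each sex. In male embryos (5 in vivo, 3 serum-containing), 17 of 68 splicing factors tested were higher in serum-containing medium and none was lower, 9.19% of all genes being higher and 9.77% lower. SNRPF (log2 fold change 1.43, SE 0.27), SNRPG (1.35, SE 0.21), LSM1 (1.27, SE 0.26) and SF3B5 (1.01, SE 0.18) were among 5 that were at least 2-fold higher in male embryos, as were 5.31% of all genes tested. Without serum embryo 7, which leaves 2 male serum embryos, 9 were called.

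In female embryos (3 in vivo, 5 serum-containing), none of 68 was called by edgeR's quasi-likelihood test, with 0.418% of all genes called. At an unadjusted p under 0.05 there were 20 of 68, against 1719 of all 8138 genes tested. DESeq2 called 5 splicing factors and edgeR's exact test 1, counts that were not set against all genes. The values were nevertheless mostly positive, 56 of 68 in female and 56 of 68 in male embryos, with medians of 0.47 and 0.41. SNRPG had a log2 fold change of 1.09 (SE 0.31, adjusted p = 0.113) and LSM1 one of 1.15 (SE 0.34, adjusted p = 0.122) in female embryos. The difference between the sexes was tested as an interaction, in which none of 69 splicing factors and none of 8446 genes was called. The 1 splicing factor at an unadjusted p under 0.05 was SF3B3, whose serum effect in male minus that in female embryos was -1.14 on the log2 scale (SE 0.32, adjusted p = 0.664). SF3B3 had 299 ± 43.1 CPM in 5 male and 166 ± 31.8 CPM in 3 female in vivo embryos, and 228 ± 61.7 CPM in 3 male and 275 ± 53.9 CPM in 5 female serum embryos (SD).

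In serum-free medium, 2 of 68 splicing factors were higher in male embryos, SNRPE (log2 fold change 0.68, SE 0.15, adjusted p = 0.0382) and SNRPF (0.91, SE 0.21, adjusted p = 0.0452), with 1.76% of all genes called and 1.07% higher. This count ran from 0 to 4 when 1 embryo was left out, changing with each of the 10 embryos, and was 0 without the filter on low counts. None was called in female embryos, with 0.304% of all genes called, and none by DESeq2 or edgeR's exact test. Of the splicing factors, 12 had an unadjusted p under 0.05 in the quasi-likelihood test, a count that is not set against all genes here. The interaction again gave no call, with 6 splicing factors at an unadjusted p under 0.05, a count that was not set against all genes.

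Male and female embryos were compared over the 3 cultures, with culture as a term of the model. Of 69 splicing factors tested, 1 was higher and 1 was lower in male embryos, 0.597% and 1.64% of all 8710 genes tested being so. Both were singled out after their values were seen. HNRPH2, a gene of the X chromosome in mammals, had 177 to 287 CPM in male and 424 to 482 CPM in female embryos in vivo, 128 to 214 and 244 to 452 CPM in serum-containing medium, and 98.3 to 261 and 377 to 487 CPM in serum-free medium. The sexes did not overlap in any of the cultures. The log2 difference, male over female, was -1.15 (SE 0.14, adjusted p = 7.84e-06), while HNRPH2 did not differ detectably between serum-containing medium and in vivo (log2 fold change -0.02, 95% interval -0.58 to 0.55). LSM7 was higher in male embryos, with a log2 difference of 0.46 (SE 0.11, adjusted p = 0.0205). Its levels were 114 ± 12.2 CPM in male and 71.7 ± 6.39 CPM in female in vivo embryos, which did not overlap, whereas the sexes overlapped in both media. Its call was lost without in vivo embryo 9 and without serum embryo 1.

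**Figure D4:**
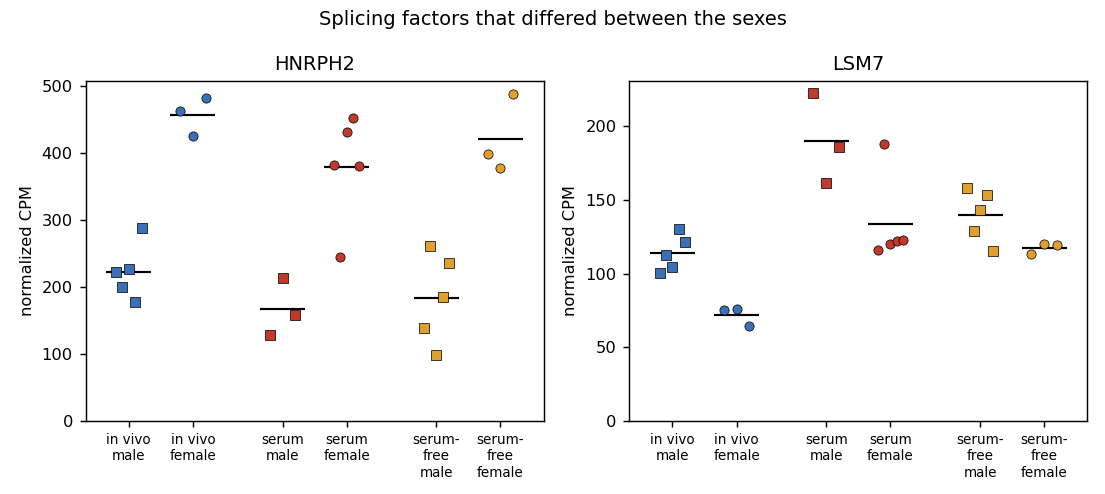
Normalized CPM (y axis, from 0) of HNRPH2 and LSM7 in each embryo by culture and sex; lines give the mean of 3 or 5 embryos. Female embryos have higher HNRPH2 than male embryos in each culture, without overlap, and LSM7 is without overlap in vivo alone.

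The embryos of serum-containing medium were also the most variable. Over the 66 splicing factors with a mean of at least 10 CPM, the median coefficient of variation was 14.7% in vivo, 24.8% in serum-containing medium and 18.1% in serum-free medium. Over all 6873 genes at this level it was 24.9%, 39.9% and 30.5%, so that the order of the groups was that of the genes as a whole. These coefficients are given as a description and were not tested.

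Other genes of the splicing machinery were taken from lists drawn up by function. Among other spliceosome proteins, 19 of 60 tested (31.7%) were higher in serum-containing medium than in vivo and none was lower, against 16.3% and 12.2% of all genes tested. The smallest adjusted p was that of PHF5A, a partner of the SF3B complex, with a log2 fold change of 1.27 (adjusted p = 4.17e-06). No protein of this list was called between serum-free medium and in vivo, where 60 were tested, and 14 of 58 (24.1%) were higher in serum-containing than in serum-free medium, against 9.27% of all genes tested. Other splicing regulators moved both ways in serum-containing medium, 4 of 26 being higher and 4 lower (15.4% each, close to the 16.3% and 12.2% of all genes tested). They were led by PCBP2 (1.03, adjusted p = 0.00497) and CIRBP (-1.87, adjusted p = 0.00426), RNA-binding proteins with further roles outside splicing.

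The SMN complex loads the Sm ring onto small nuclear RNA. Of its 13 genes tested, 3 (23.1%) were higher in serum-containing medium and none was lower. Over all genes tested, 16.3% were higher and 12.2% lower (28.5% in all). The 3 that were higher were led by CLNS1A, the chaperone that holds Sm proteins before assembly (0.74, adjusted p = 0.00885). Of 8 kinases and phosphatase genes that act on SR proteins, none was higher and 1 was lower, the phosphatase subunit PPP1CA (-0.65, adjusted p = 0.022). At 12.5% lower, the list was close to the 12.2% of all genes tested. Of these lists in serum-free medium against in vivo, 1 of 27 other regulators and 1 of 9 kinase and phosphatase genes were lower, against 2.31% of all genes tested, and none of 14 SMN genes was called.

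All 75 rows are accounted for. In the comparison of serum-containing medium with in vivo, 8 were untested: the second rows of HNRNPF and SNRPE, LSMEM2, LSMEM1, LSM11, SRSF12, HNRNPUL2 and PRPF40B. The second row of HNRNPF and LSMEM2 had no counts in any embryo. HNRNPUL2 had between 9 and 75 counts and PRPF40B between 4 and 206. PRPF40B was tested between serum-free medium and in vivo, where its log2 fold change was 0.87 (SE 0.36, adjusted p = 0.153). Of the 75, 6 were tested in no comparison.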

How the data were processed

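Per the labels and methods, the authors trimmed reads and mapped them with CLC Genomics Workbench to the bovine genome (UMD 3.1, Ensembl annotation), and deposited raw counts of fragments mapped uniquely to exons. The library kit does not keep strand. Labels and methods name different HiSeq models. Groups and sex came from sample titles. Counts were tested in edgeR 4.0.16 (R 4.3.3) by TMM normalization and the quasi-likelihood test on the groups compared, with Benjamini-Hochberg adjustment over all genes tested. Standard errors and 95% intervals are approximate, from the estimate and its F statistic. The members and gene lists were chosen with earlier results of these data known. Named members are the 12, 6 and 4 with the smallest adjusted p under 0.05 in serum-containing against in vivo, serum-free against in vivo and serum-containing against serum-free, plus 10 chosen by name; 1 gene of these is not reported here, and other members appear by class with a fold change. From each other list, the gene with the smallest adjusted p in each direction is named. The code was tested on simulated data. Alternatives included DESeq2 1.42.0, edgeR's exact test, other filters and scalings, and leaving out each embryo. Same-numbered embryos did not deviate together, their correlations being -0.124 to 0.0825 between serum-containing medium and in vivo, with none over 0.1. No gene coordinates are given, because the annotation at hand (ARS-UCD2.0) is of another build. The intervals are for the mean log2 difference, computed from the spread between embryos, and do not span the values of single embryos. Fragments carry no molecular identifiers.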

Additional observations from a re-analysis of the deposited data

Results flagged for a closer look

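Of 84 groups of embryos checked for a single value far from the rest (27 genes and the sum of all splicing factors, in 3 cultures), 8 held one, where chance alone gives about 1 in 20. In serum-containing medium these were serum embryo 5 for HNRPC (770 CPM) and PRPF39 (342 CPM), and serum embryo 2 for SRSF3 (1047 CPM, the highest) and LSM2 (16.0 CPM, the lowest). In serum-free medium they were serum-free embryo 4 for SNRPC (465 CPM), SF3B14 (430 CPM) and SRSF3 (1168 CPM), and serum-free embryo 3 for HNRNPF (1861 CPM). Each was the highest of its group apart from LSM2. Serum embryo 5 was the most deeply sequenced embryo, with 9000447 counts.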

How the results depend on the processing

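Among single splicing factors, no change called in the main fit or under 1 of the alternatives run reversed its direction. Changes of sign were not counted where neither fit called the gene. Of the values of single splicing factors under these alternatives, 5133 kept their side of the threshold, 148 lost it and 39 gained it. The 33 calls in serum-containing medium against in vivo became 27 to 33 with another scaling, test, sex term, stricter filter, thinned counts or all embryos in 1 fit, and 21 without the filter on low counts. Those 10 in serum-free medium against in vivo became 3 without the filter and 3 in the fit over all embryos. The 10 between the media became 4 without the filter, 20 in the fit over all embryos, and 4 without serum embryos 2 and 5, an alternative added after seeing the data. The 1 at least 2-fold between the media became 0 with 15 counts required in both groups and 0 without those embryos. In female embryos of serum-containing medium, 0 calls became 5 with DESeq2 and 1 with the exact test. In male embryos of serum-free medium, 2 became 0 without the filter and 6 with DESeq2, and between the sexes 2 became 1 without the filter. The causes of these shifts were not tested.

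Leaving out each embryo in turn gave 25 to 33 calls in serum-containing medium against in vivo, and 2 to 4 at least 2-fold (2 without serum embryo 2). Serum-free medium against in vivo gave 6 to 11, with 6 without in vivo embryo 1, 6, 7 or 8 or serum-free embryo 10, and 0 to 0 at least 2-fold. Between the media there were 5 to 11, with 6 without serum embryo 5 or 7 or serum-free embryo 8 or 10, and 5 without serum-free embryo 7. The 1 at least 2-fold was lost without serum embryo 2 or 5 (0 to 1). In male embryos there were 9 to 21 in serum-containing medium (9 without serum embryo 7) and 0 to 4 in serum-free medium, where each of the 10 embryos left out in turn changed the count. In female embryos there were 0 to 4 in serum-containing medium (4 without serum embryo 2) and 0 to 0 in serum-free medium. Both interactions gave 0 to 0, and the sexes 1 to 2.

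The labels number the embryos within each group, and 7 numbers were shared per comparison. No embryo pair with the same number deviated together, and at most 1 of 7 correlated best with its own number. With the replicate number as a block, 11 splicing factors were called in serum-containing medium against in vivo, 3 in serum-free medium against in vivo, and 0 between the media (0 at least 2-fold), in fits with fewer embryos. At these depths, 8 rows were untested in serum-containing medium against in vivo, 2 of them without counts in any embryo.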
